A study of Mus musculus with 12 samples.

Results

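The interferon-inducible p200 genes, also called PYHIN genes, were followed in cultured OPCs of the mouse. OPCs, oligodendrocyte precursor cells, proliferate in the central nervous system and mature into the oligodendrocytes that make myelin. The members were taken from a list of 9 names: Ifi203, Ifi204, Ifi207, Ifi209, Ifi211, Ifi213, Mndal, Mnda and Aim2. Mnda is a synonym of Ifi211 in RefSeq and has no gene model of its own in the annotation, so the list covers 8 genes of the 55536 quantified. Reads were summed per gene and also over all 8 genes, since these genes are near copies of each other over parts of their sequence.

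Total RNA-seq had been done on 12 cultures in 3 groups of 4: Ctr-OPCs without treatment, OPCs given 1 µM dexamethasone, a synthetic glucocorticoid, for 48 h (Dexa), and OPCs given 100 ng/ml of the cytokine IFN-γ for 48 h. Pups aged P4 to P6 gave the brains, several of which were pooled for each culture, with a different litter for each replicate. Cells were isolated either by the Sox10 green fluorescent reporter or with beads against CD140a, then grown with PDGFaa and bFGF. In the study's methods the reporter line carries Sox10:Cre and the RCE:loxP (EGFP) allele, on C57BL/6J and mixed C57BL/6xCD1 backgrounds, so Cre activity marks the whole oligodendrocyte lineage and not only its precursors. The table of Dexa replicate 3 was cut short but listed all transcripts of the 8 genes. It held a single read of the family and entered no fit over all genes, unless stated. The labels also give every sample the mouse model EAE, a model of multiple sclerosis, which was not used as a group and is not explained for cultured cells of pups.

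Between 19209063 and 52074652 reads were assigned to genes in the 11 complete libraries. OPC markers were abundant, with a mean normalized count of 83457 for Pdgfra in Ctr-OPCs and 58990 in IFN-γ-treated OPCs, and 1 of 9 OPC markers tested (C1ql1) fell with IFN-γ. With the replicate number as a block in DESeq2, 6 of the 9 fell (C1ql1, Gpr17, Lhfpl3, Pdgfra, Cspg4 and Sox10), where 14.1% of 17919 genes were called lower and 15.2% higher. Markers of myeloid cells, in which p200 proteins are well known, were scarce beside those of OPCs. Their summed normalized count was 75.0 to 139 in Ctr-OPCs, 70.2 to 122 in Dexa and 91.5 to 150 in IFN-γ-treated OPCs. Of the 18 myeloid markers 5 were tested and 0 passed in DESeq2 with IFN-γ, with or without the block. The 5 tested averaged, in Ctr and IFN-γ, 42.1 and 38.7 normalized counts (Cd68), 17.4 and 22.2 (P2ry12) and 12.7 and 14.96 (Lyz2). Laptm5 averaged 8.09 and 13.8, and Csf1r 7.08 and 8.3. Among defining ones below the count filter, Itgam averaged 1.16 and 1.74, Spi1 0.426 and 0, and Tyrobp 0.310 and 0. Cx3cr1 averaged 0.155 and 1.35, and C1qa 0.581 and 2.87. No myeloid marker was at 0 in every library. The myeloid sum lay above that of the 8 p200 genes in Ctr (4.34 to 14.9). With IFN-γ it overlapped theirs (118 to 215). All 9 lymphocyte markers were below the count filter, with sums of 8.05 to 15.2 in Ctr, 8.74 to 10.9 in Dexa and 8.50 to 18.9 in IFN-γ. Of 4 neuronal markers 2 (Syt1 and Tubb3) rose with IFN-γ, while Snap25 (log2 fold change -0.46) and Rbfox3 (-0.32) did not pass. With the block Snap25 fell (adjusted p = 0.00256). Their sum, to which Tubb3 gave the most, was 1348 to 1588 in Ctr-OPCs, 1717 to 1897 in Dexa and 2725 to 5094 in IFN-γ. Of 6 astrocyte markers 2 rose (Gfap and Aldoc), and Aqp4 (-1.02), Gja1 (-0.35), Aldh1l1 (0.55) and Slc1a3 (0.25) did not pass. With the block 4 of the 6 rose and 2, Aqp4 and Gja1, fell. The sums, carried by Slc1a3 and Aldoc, were 14841 to 46664 in Ctr, 33076 to 59308 in Dexa and 31802 to 47962 in IFN-γ. Of 6 endothelial and mural markers tested 0 rose with IFN-γ and 1 (Flt1) with Dexa (with the block Kdr fell with IFN-γ), with sums of 160 to 220 in Ctr, 209 to 395 in Dexa and 109 to 184 in IFN-γ. With the block Dexa raised Gfap, Aldoc, Cspg4 and Snap25 as well as Flt1, and lowered no tested cell type marker, where 2.78% of 16529 genes were called. The part of these cell type markers in the values that follow was not tested. In bulk RNA a change in the number of cells that express a gene and a change in the amount per cell cannot be told apart.

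p200 proteins carry a DNA-binding HIN domain at the C-terminus, and most carry a pyrin domain at the N-terminus, through which such proteins assemble into larger complexes. AIM2, the best known, binds double-stranded DNA in the cytosol and recruits the adaptor ASC (Pycard) and caspase-1 into an inflammasome, which matures IL-1β and IL-18 and cleaves the pore protein gasdermin D. The Ifi204 product, p204, has been described as a DNA sensor acting through STING and as a regulator of transcription, and other members are mainly known as interferon-inducible nuclear proteins. IFN-γ signals from its receptor through JAK kinases to factors that bind the gamma-activated site, and through IRF factors such as IRF1, which bind the interferon-stimulated response element (ISRE).

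The 8 genes lie in a single cluster on chromosome 1 (GRCm38, chr1:173350879-173942672), 6 of them on the minus strand and 2, Aim2 and Ifi209, on the plus strand. The order by start is Aim2, Ifi213, Ifi209, Ifi207, Ifi204, Mndal, Ifi211 and Ifi203. A further 6 p200 models that are not on the list, Ifi206, Ifi214, Ifi208, the pseudogene Ifi203-ps, Ifi202b and Ifi205, lie among them or just beyond Ifi203. The annotated model of Mndal spans Ifi211 and overlaps most of Ifi203, on the same strand.

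**Figure D1:**
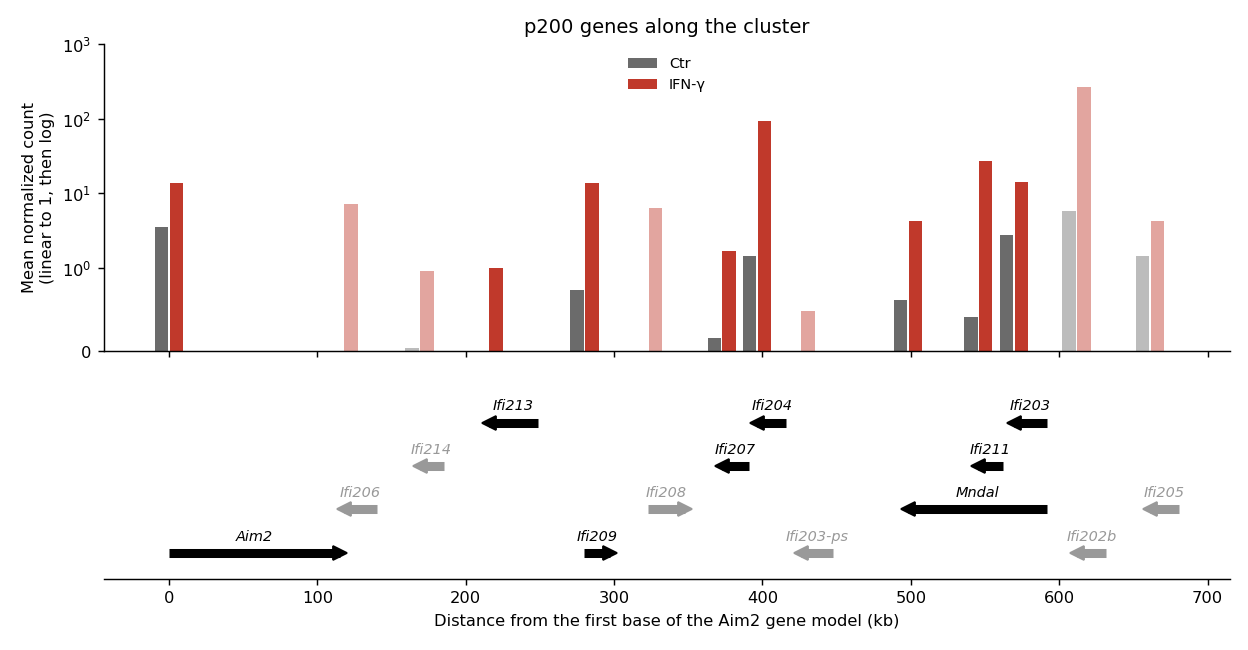
The upper panel shows the mean normalized count of each p200 gene in Ctr-OPCs (grey, n = 4) and IFN-γ-treated OPCs (red, n = 4), on an axis that is linear to 1 and logarithmic above, with the pair of bars placed at the gene's lower coordinate. The lower panel shows the gene models and their strand in kb from the start of Aim2, with listed members in black and the other p200 genes in paler tones. Ifi204, at 94.1, was the highest member with IFN-γ, and the unlisted Ifi202b was higher still at 265.

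A promoter stretch is shown for each member whose window around the gene start held an ISRE core (GAAA, any 2 bases, then GAAA, on either strand) and for Ifi209, which holds nearly the same letters. Ifi204 had no window among the promoter sequences used, so its promoter was not examined. The sequences are from RefSeq on GRCm38.p6, 5′ to 3′ on the gene's strand, with the 10 bases at the core in capitals.
Ifi203 (chr1:173942503-173942552, minus strand): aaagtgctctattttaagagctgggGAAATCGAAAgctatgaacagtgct
Mndal (chr1:173880199-173880248, minus strand): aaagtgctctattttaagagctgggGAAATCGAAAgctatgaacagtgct
Ifi213 (chr1:173599321-173599370, minus strand): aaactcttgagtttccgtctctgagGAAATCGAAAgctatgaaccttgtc
Ifi207 (chr1:173741826-173741875, minus strand): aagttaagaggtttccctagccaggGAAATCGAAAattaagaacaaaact
Ifi211 (chr1:173913059-173913108, minus strand): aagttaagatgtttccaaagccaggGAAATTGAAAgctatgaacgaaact
Ifi209 (chr1:173630755-173630804, plus strand): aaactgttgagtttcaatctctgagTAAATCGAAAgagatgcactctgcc

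The stretches of Ifi203 and Mndal were identical over all 50 bases. Against GAAATCGAAA, counted from 1 at its 5′ end, Ifi211 differed by C6T, which the core allows, and Ifi209 by G1T, which it does not. The first base of the core lay 35 bases before the annotated start in Ifi203, 36 in Mndal, 37 in Ifi211, 41 in Ifi207 and 73 in Ifi213. Mndal and Ifi203 each have a further annotated start in RefSeq. The window of the other Mndal start held a core as well, and that of the other Ifi203 start held none. Of the 7 member genes with a promoter window of 250 bases before to 50 after the start, which are all but Ifi204, 5 held the core, against 3.99% of 27025 genes. The gamma-activated site (TTCNNNGAA, either strand) was in 0 of 7, against 9.55% of genes. Aim2 held neither motif. Among the unlisted p200 genes, Ifi205, Ifi206, Ifi208 and Ifi214 held the core, and Ifi202b held a gamma-activated site but no core. Since parts of these windows are near copies of each other, the matches are not independent. A match of letters is a description and says nothing of binding.

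Reads of these genes are hard to place because the transcripts repeat each other. Ifi204 and Ifi211 share a run of 223 coding bases, the longest of the 5 pairs of members compared, at bases 201 to 423 of both coding sequences. It lies in exons 2 and 3 of both genes (Ifi204, chr1:173761599-173761663 and chr1:173760169-173760326; Ifi211, chr1:173907597-173907661 and chr1:173906171-173906328, all on the minus strand). A read from this run fits both genes equally well:
Ifi204 and Ifi211: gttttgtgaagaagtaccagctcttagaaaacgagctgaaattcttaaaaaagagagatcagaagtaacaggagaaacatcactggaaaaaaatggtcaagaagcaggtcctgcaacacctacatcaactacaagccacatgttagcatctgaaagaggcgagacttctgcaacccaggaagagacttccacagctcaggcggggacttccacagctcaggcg

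Over all annotated transcripts, 78.9% of the 31-base words of Ifi211 occurred in another p200 gene, with 49.5% in Ifi205, 38.6% in Ifi204 and 25.3% in Mndal. The share was 46.9% for Ifi209, almost all of it in Ifi214, 29.4% for Ifi204, 25.6% for Ifi213, 25.3% for Mndal, 20.7% for Ifi203 and 13.7% for Ifi207. Aim2 shared none with the family, and neither did Ifi202b. Of the 58 member values above 0, 13 were not whole numbers (by more than 0.01), 6 of 7 for Ifi211 and 5 of 9 for Ifi204. Values of single members other than Aim2 are therefore uncertain in how reads were divided, while the sum over the family is less so.

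**Figure D2:**
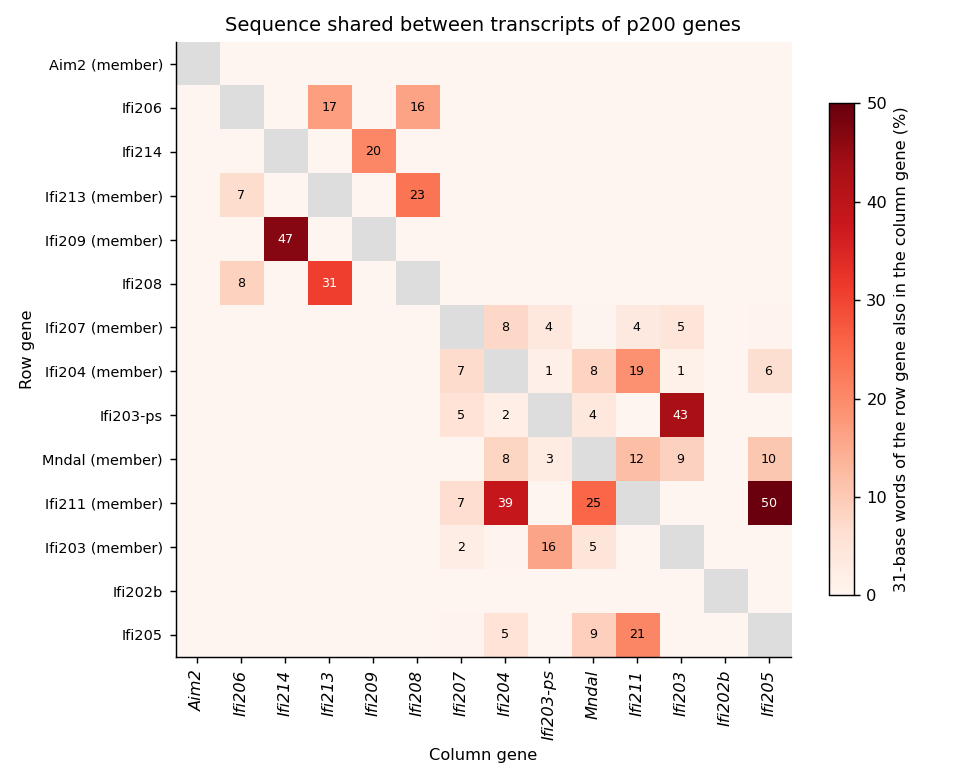
Each cell gives the percentage of the 31-base words of the row gene's transcripts that also occur in the column gene's, with genes in order along the chromosome and values of at least 1% written out. At 1% or more, Ifi206, Ifi213 and Ifi208 share with each other, and Ifi214 with Ifi209 only. Another block runs from Ifi207 to Ifi205. Aim2 and Ifi202b are outside all of these, and Ifi211 shows the darkest row at 49.5% with Ifi205.

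Ifi204 held the most reads of the family with IFN-γ, but not in Ctr-OPCs, where Aim2 and Ifi203 held more, or in Dexa, where Ifi203 did. It had 0, 6, 3 and 0 estimated reads in Ctr-OPC replicates 1 to 4 and 0, 5.52, 1 and 2 in Dexa replicates 1 to 4. In IFN-γ-treated OPCs it had 83.9, 105, 55.5 and 101. Every IFN-γ library lay far above every other library, and Ctr and Dexa overlapped. The mean normalized count was 1.45 ± 1.80 (SD, n = 4) in Ctr, 2.71 ± 2.42 (n = 3) in Dexa and 94.1 ± 27.3 (n = 4) with IFN-γ. DESeq2 gave a log2 fold change of 5.80 ± 0.63 (SE, adjusted p = 4.07e-18) for IFN-γ against Ctr, and edgeR an adjusted p of 0.000313. In IFN-γ libraries 96.9% of its reads were assigned to 1 of its 2 transcripts.

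Ifi211, the gene that also bears the name Mnda, came next. It had 1, 1.18, 0 and 0 estimated reads in Ctr-OPCs, 0, 3.83, 0 and 0 in Dexa, and 21.8, 32.9, 18.4 and 28.1 with IFN-γ. All IFN-γ libraries were again above all others, while the untreated level was at the limit of detection. The Ctr libraries held 2 reads in all, so the ratio of 69.2 in depth-corrected reads had a 95% counting interval of 18.7 to 579 (exact, covering counting error only). The fitted log2 fold change was 6.10 ± 1.06 (DESeq2 adjusted p = 2.46e-07, edgeR adjusted p = 0.00035).

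Ifi204 and Ifi211 were the only members that passed the count filter of 10 reads in 4 libraries, and they passed it through the IFN-γ libraries, so that their being called is partly fixed by the filter. Both were called higher with IFN-γ, where 8.02% of the 17909 genes tested by DESeq2 and 6.06% of the 17919 tested by edgeR were called higher. The other 6 entered a fit over all genes with any read. DESeq2 gave an adjusted p to 6 of the 8 genes there, not to Ifi207 or Ifi213, and called 4, where 6.5% of 23022 genes were called higher. By edgeR all 8 were tested and 4 were called (3.06% of 33403 genes higher). The called genes were Ifi204, Ifi211, Ifi209 and Aim2 with both tools.

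Ifi209, also known as Pyhin1, had 2, 1.79, 0 and 0 reads in Ctr-OPCs, 0, 4, 0 and 0 in Dexa, and 21, 12, 5 and 14 with IFN-γ. The IFN-γ libraries stood above all Ctr and Dexa libraries, the lowest of them, replicate 3, by a small margin. The mean normalized count went from 0.736 ± 0.90 to 14.0 ± 6.75 (SD, n = 4 each), a log2 fold change of 4.16 ± 1.01 (DESeq2 without a count filter, adjusted p = 0.000796; edgeR, adjusted p = 0.0141). Of its IFN-γ reads 37.0% were assigned to a transcript annotated for nonsense-mediated decay.

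Aim2, the inflammasome sensor and the member that shared no 31-base word with the family, was the most evenly detected in untreated cells. It had 4, 9, 4 and 2 reads in Ctr-OPCs, 2, 4, 0 and 1 in Dexa, and 8, 15, 13 and 14 with IFN-γ. Replicate 2 of Ctr had more raw reads than replicate 1 of IFN-γ, but after correction for depth every IFN-γ library (7.95 to 18.0 normalized counts) was above every Ctr library (2.17 to 5.58). The groups overlapped in TPM, Salmon's abundance corrected for both depth and transcript length. There IFN-γ replicate 1, at 0.114, was below replicate 1 of Ctr (0.136) and of Dexa (0.128). The rise was smaller than for the genes above, with a log2 fold change of 1.90 ± 0.54 (DESeq2 without a count filter, adjusted p = 0.00665; edgeR, adjusted p = 0.0233). The gene model of Aim2 overlaps that of Cadm3 on the opposite strand, but 85.7% of its IFN-γ reads were assigned to a transcript (chr1:173455354-173466032) that begins beyond the end of Cadm3 at position 173367695. In Dexa 3.47 of its 7 reads were assigned to a transcript that begins within Cadm3 (chr1:173350879-173466040), against 0 in Ctr and in IFN-γ.

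Ifi203 had 7, 4, 0 and 2 reads in Ctr-OPCs, 9, 11, 0 and 0 in Dexa, and 25, 21, 5 and 5 with IFN-γ. In each treatment replicates 1 and 2 were above replicates 3 and 4, which share a prefix in their sample titles whose meaning is not stated, and IFN-γ replicates 3 and 4 overlapped Ctr replicate 1. Its log2 fold change of 2.40 ± 0.93 missed the threshold (DESeq2 without a count filter, adjusted p = 0.0839; edgeR, adjusted p = 0.165). With the replicate number as a block it passed, at 2.61 ± 0.79 (adjusted p = 0.00555), where 12.8% of 21098 genes were called higher. It also passed without Ctr replicate 1 (adjusted p = 0.0195) and without Dexa replicate 4 (adjusted p = 0.0308), so the call rests on these choices.

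Mndal had 2, 1, 0 and 0 reads in Ctr-OPCs, 4, 3, 0 and 0 in Dexa, and 4, 6, 3 and 3.05 with IFN-γ. Normalized counts with IFN-γ, from 3.50 to 5.66, were above those of Ctr, from 0 to 1.84, but overlapped Dexa, where replicate 1 reached 4.32. The ratio to Ctr of 7.31 had a counting interval of 2.09 to 39.2, and the adjusted p was 0.0855 (DESeq2 without a count filter) and 0.147 (edgeR), or 0.0466 by DESeq2 without Ctr replicate 1. Of its IFN-γ reads 31.2% were assigned to a transcript whose annotated start is also that of an Ifi203 transcript.

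Ifi207 and Ifi213 were at the limit of detection throughout. Ifi207 had 1 read in Ctr-OPCs, in replicate 2, 0 in Dexa, and 1, 2, 0 and 3 with IFN-γ. Ifi213 had 0 in Ctr and Dexa and 1, 2, 1 and 0 with IFN-γ. No library held more than 3 reads of either, and no fold change is given. A count of 0 allows up to 3 reads in a library, so these genes cannot be called absent from untreated cells.

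**Figure D3:**
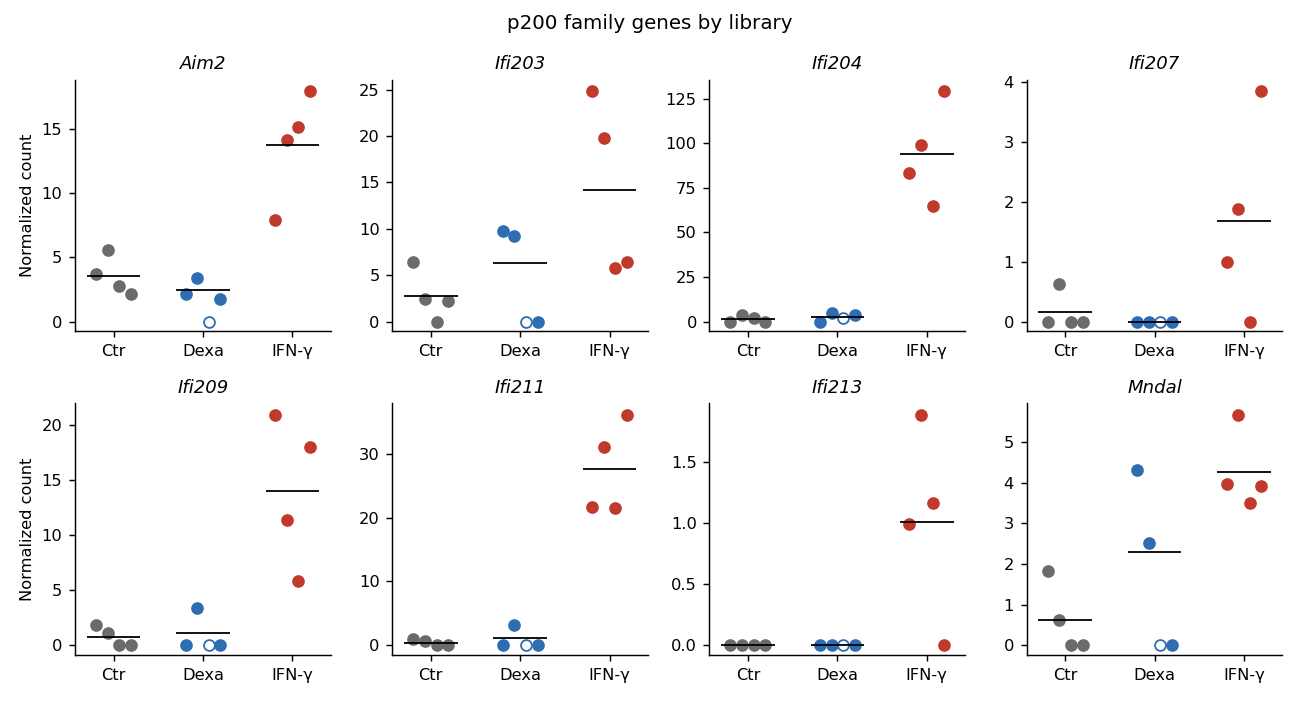
Normalized counts of the 8 genes, 1 point per library in replicate order within each group, with the mean of the complete libraries as a line and Dexa replicate 3, whose table was cut short, as an open circle. Axes differ between panels, and Ifi204, from 64.7 to 129 with IFN-γ, is on a scale far above that of Ifi207 and Ifi213.

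**Figure D4:**
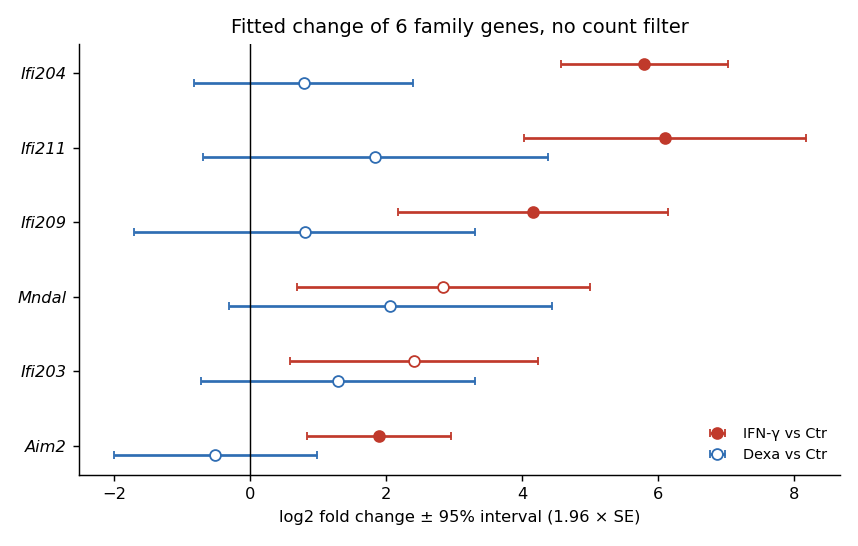
Log2 fold changes with 95% intervals (DESeq2 without a count filter) for the 6 genes with more than 3 reads in some library, IFN-γ against Ctr in red and Dexa against Ctr in blue, with filled points where the adjusted p was under 0.05. The 4 filled points are all IFN-γ comparisons, from 1.90 for Aim2 to 6.10 for Ifi211, and every Dexa interval includes 0.

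In all, 5 of the 8 genes (Ifi204, Ifi211, Ifi209, Aim2 and Mndal) had every IFN-γ library above every Ctr library in normalized counts, against 5.68% of the 33403 genes with at least 1 read. For Aim2 this did not hold in TPM. Of the 8 genes, 7 had reads in Ctr-OPCs, 6 in the complete Dexa libraries and 8 with IFN-γ.

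Levels of different genes can be set side by side as TPM, the abundance that Salmon corrects for transcript length and depth. In IFN-γ-treated OPCs the mean TPM was 0.963 ± 0.324 for Ifi204, 0.368 ± 0.121 for Ifi211, 0.231 ± 0.0814 for Aim2, 0.187 ± 0.112 for Ifi203, 0.139 ± 0.0971 for Ifi209 and 0.129 ± 0.0750 for Mndal (SD, n = 4 each). Ifi213 and Ifi207 followed at 0.0144 ± 0.0122 and 0.0124 ± 0.0119. Ifi204 was above Ifi211 in every library pair, with 0.581 as its lowest and 0.483 as the highest of Ifi211, and Mndal, at 0.0705 or more, was above Ifi213, at 0.0297 or less. Other neighbours in this order overlapped. All of these levels were low for these cells: of the 17919 genes tested, 70.5% had a higher mean TPM than Ifi204 with IFN-γ, and 88.2% a higher one than Aim2.

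The summed family showed the same contrast without depending on how reads were divided among its members. It came to 14.7, 14.9, 4.82 and 4.34 normalized counts in Ctr-OPC replicates 1 to 4. With Dexa it was 16.2, 26.4, 2.02 and 5.24. With IFN-γ it was 165, 185, 118 and 215. The lowest IFN-γ library was far above the highest of the others, and Ctr and Dexa overlapped. The group means were 9.68 ± 5.89 (SD, n = 4), 15.9 ± 10.6 (n = 3) and 171 ± 41.0 (n = 4).

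The ratio of IFN-γ to Ctr was 17.6, and 26.8 when the unlisted p200 genes of the cluster were added. Most of the added counts were of Ifi202b, with a mean of 265 with IFN-γ against 7.20 or less for each other unlisted gene. Within replicate numbers the ratio of the listed family was 11.2, 12.5, 24.4 and 49.6 for numbers 1 to 4, the larger ratios in numbers 3 and 4 going with a lower Ctr sum. The make-up also differed: Ifi204 held 17.7% of the family's reads in Ctr-OPCs and 54.7% with IFN-γ, Ifi211 held 4.28% and 16.1%, and Aim2 held 37.3% and 7.93%. The Ctr shares rest on 51 reads in all.

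**Figure D5:**
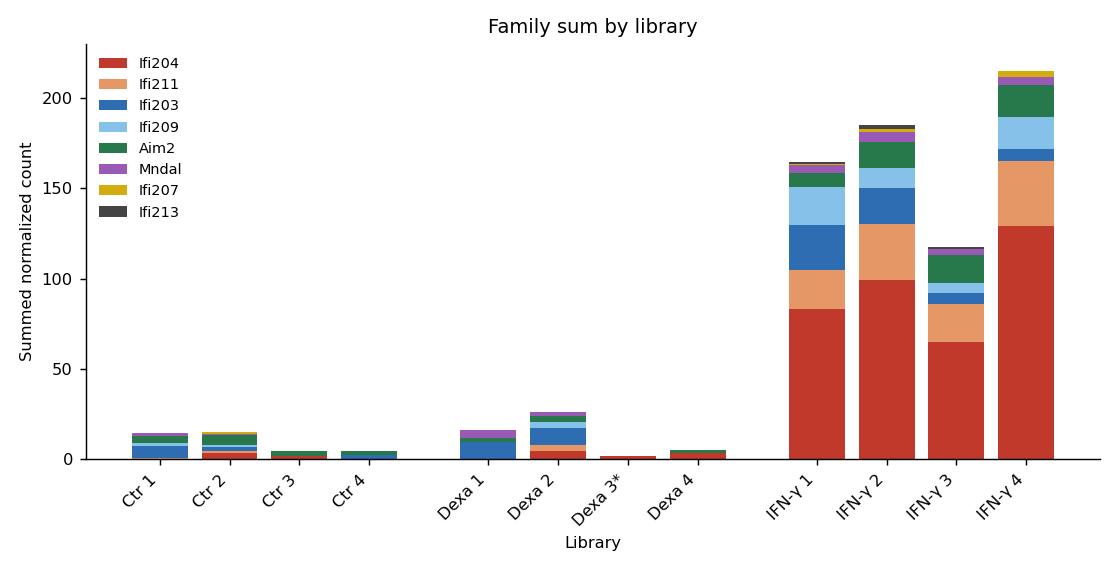
Normalized counts of the 8 genes stacked for each of the 12 libraries, with an asterisk at Dexa replicate 3, whose table was cut short. The IFN-γ bars reach 118 to 215, mostly Ifi204, and no Ctr or Dexa bar exceeds 26.4.

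Dexamethasone changed no member past the threshold. Of the 98 genes called between Dexa and Ctr by DESeq2 (0.558% of 17561), 0 were members, and 0 of the 8 had an unadjusted p under 0.05 in DESeq2 or in edgeR, with or without the count filter. The share of genes called was 0.498% by DESeq2 without the filter, and 0.123% and 0.0718% by edgeR with and without it. The family sum was 1.65 times that of Ctr without Dexa replicate 3 and 1.29 times with it, and the Ctr and Dexa libraries overlapped, with an SD of 10.6 among the complete Dexa libraries against a mean of 15.9. Log2 fold changes, by DESeq2 without a count filter, were 0.78 ± 0.83 for Ifi204, 1.84 ± 1.29 for Ifi211, 0.80 ± 1.28 for Ifi209, 1.29 ± 1.03 for Ifi203, 2.06 ± 1.21 for Mndal and -0.52 ± 0.76 for Aim2 (SE). At this depth changes of several-fold in either direction could not have been told from 0 for these genes.

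Set against Dexa, IFN-γ gave higher Ifi204 (log2 fold change 5.01 ± 0.67, DESeq2 adjusted p = 5.38e-12) and Ifi211 (4.26 ± 0.87, adjusted p = 2.38e-05), where 7.66% of 17909 genes were called higher. Both genes passed the count filter only through the IFN-γ libraries, so these calls too are partly fixed by the filter. Without the count filter (6.29% of 21727 genes higher) Aim2 (2.42 ± 0.71, adjusted p = 0.00964) and Ifi209 (3.36 ± 1.07, adjusted p = 0.0201) were also called. By edgeR without the filter (2.69% of 33403 genes higher) Aim2 passed (adjusted p = 0.0187) and Ifi209 did not (adjusted p = 0.0764). Leaving out 1 library at a time, Aim2 was called in 9 of 11 fits, not without Dexa replicate 1 (adjusted p = 0.056) or 2 (0.0598). Ifi209 was called in 6 of 11, with an adjusted p of up to 0.0973 without Dexa replicate 1 or 4 or IFN-γ replicate 1, 2 or 4. This comparison and the one against Ctr share the IFN-γ libraries.

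The unlisted p200 genes of the cluster had a wider range. Ifi202b, which has HIN domains but no pyrin domain and is known to restrain AIM2, had the highest mean of the p200 genes with IFN-γ, though not the highest value in replicate 3, where Ifi204 was above it. It had 8, 18, 2 and 3 reads in Ctr-OPCs, 7, 10, 0 and 7 in Dexa, and 509, 276, 39 and 192 with IFN-γ. Its IFN-γ values ran from 45.5 normalized counts in replicate 3 to 506 in replicate 1, all above all others, and the log2 fold change was 5.50 ± 0.69 (DESeq2 adjusted p = 8.64e-14). Of the 6 libraries in which Ifi202b reached 10 reads, 4 were of IFN-γ, so it too needed these to pass the count filter. Ifi206 had 0 reads in Ctr and Dexa and 2, 9, 8 and 7 with IFN-γ. Its IFN-γ mean was 2.90 times a floor of 3 reads in each Ctr library. Ifi208 had 0 in Ctr, 1 in Dexa and 2, 1, 7 and 11 with IFN-γ, with a mean 2.54 times the same floor. These ratios make no allowance for the spread of the IFN-γ libraries. Without a count filter both genes passed in DESeq2 (adjusted p = 0.00160 and 0.0114). For Ifi208 replicates 3 and 4 of IFN-γ carried the result. Without replicate 4 its ratio to the floor was 1.49 and DESeq2 gave no adjusted p, and without replicate 3 the adjusted p was 0.0820. With the replicate block Ifi208 had no adjusted p either (unadjusted p = 0.00335). Ifi205 did not pass (adjusted p = 0.646), with 7.82 reads in Ctr and 16.6 with IFN-γ in all, and Ifi214 and Ifi203-ps had at most 2 reads in any library.

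Cadm3, a cell adhesion gene, was the nearest tested protein-coding gene outside the family on the Aim2 side. It had 1427 ± 755 normalized counts in Ctr-OPCs and 773 ± 307 with IFN-γ (SD, n = 4 each; log2 fold change -0.88 ± 0.49, DESeq2 adjusted p = 0.284). With the replicate block it fell, at -0.81 ± 0.10 (adjusted p = 1.48e-13). It passed in neither fit with Dexa.

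Genes that act with the family were described from 3 lists. Of 14 inflammasome genes 7 were tested, and 4 rose with IFN-γ and 0 fell, with a median log2 change of 1.37 against -0.02 over all genes tested, of which 8.02% were called higher and 4.83% lower. They were Casp1, Casp4, Casp8 and Gsdmd, which encode caspases and the pore protein gasdermin D. The adaptor Pycard was at 0.56 ± 0.21 (adjusted p = 0.0592), Il18 at 0.03 ± 0.20, and Il1b, Nlrp3 and Nlrp1b were below the filter. Of 10 DNA sensing genes 4 rose (Zbp1, Samhd1, Trex1 and Tbk1) and 0 fell, with a median of 0.79. Mean normalized counts in Ctr and Dexa were 0.654 and 0 for Casp4 and 1.88 and 1.16 for Zbp1. These genes passed the count filter through the IFN-γ libraries, so their calls, and their part in the counts and medians, are partly fixed by the filter. The sensor Cgas, at 1.00 ± 0.41, and Tmem173, the gene of STING, at 1.05 ± 0.52, did not pass (adjusted p = 0.0930 and 0.201), but both did with the replicate block (adjusted p = 2.73e-05 and 3.61e-06). Of 7 genes from the IFN-γ receptor to the nucleus 5 rose (Jak1, Jak2, Stat2, Irf1 and Irf9) and 1 fell (Ifngr1, -0.28 ± 0.09), with a median of 1.16. With the block 4 inflammasome genes rose and 1 (Ninj1) fell, 7 DNA sensing genes rose, Ddx41 among them, and the third list kept its 5 and 1, against the 15.2% and 14.1% of all genes given above. With Dexa 0 of the tested genes on the 3 lists passed in DESeq2, nor did any with the block, where 2.78% of 16529 genes were called.

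The largest changes on the lists were in Zbp1, a sensor of Z-form nucleic acids, from 1.88 ± 1.82 to 641 ± 35.7 normalized counts (log2 fold change 8.21 ± 0.45), and Casp1, from 13.8 ± 5.0 to 1023 ± 202 (6.20 ± 0.28). Irf1 went from 364 ± 31.9 to 23607 ± 983 (6.01 ± 0.10) and Casp4 from 0.654 ± 0.757 to 45.7 ± 6.13 (5.87 ± 0.78, SD over n = 4 for counts, SE for fold changes). The mean normalized count of Casp1 with IFN-γ was thus above that of the summed family, and that of Casp4 below it, in counts not corrected for transcript length.

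Among the genes whose log2 normalized counts followed the log2 family sum best over the 11 complete libraries were Neat1 (Pearson r = 0.983), Parp3 (0.983), Tmem51 (0.978) and Sp110 (0.977). The 4 IFN-γ libraries stood apart from the other 7 in the family sum, and 523 of 17917 genes had an r above 0.9. Their mean normalized counts in Ctr, Dexa and IFN-γ were 227, 287 and 696 for Neat1, a nuclear long noncoding RNA, and 0.384, 0.921 and 25.4 for Sp110, a nuclear body protein.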

How the data were processed

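Total RNA libraries were made by the authors with a stranded, ribosome-depleting kit. The authors ran Salmon (0.8.2, per the labels), and the deposited tables hold an estimated count and a TPM value per transcript. Whether strand was used is not given in the sources used here. The 3 tables of the authors' own DESeq2 comparisons hold fold changes and p-values and were not used. Identifiers matched GENCODE M21 on GRCm38.

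Estimated counts were summed per gene and rounded. DESeq2 (1.42.0, Wald test, group only, no shrinkage, Benjamini-Hochberg over all genes tested) was fitted on 11 libraries and 17919 genes with at least 10 counts in 4 libraries. Calls had an adjusted p under 0.05. The quasi-likelihood test of edgeR (4.0.16) was run beside it. Both were tested on simulated data. Normalized counts are counts over size factors (0.572 to 1.61). Dexa replicate 3, used as values only, was brought to this scale over the 19130 genes it lists whole. Word sharing was computed over 31 bases on GENCODE transcripts.

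Alternatives were other scaling factors, tools, filters and libraries, and a replicate block. Same-numbered libraries deviated together (r = 0.404 to 0.722 in 10 pairs, against -0.614 to 0.495 in 30 pairs of different numbers), so the numbers were taken to pair them. The labels say that replicates came from different litters, not that a number marks a shared one. Libraries of a group differed beyond sampling noise (chi-square per degree of freedom 22 to 223). Intervals cover counting error only, and PCR copies were not told apart.

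Named genes were the members, the other p200 genes, the 4 called partner genes with the largest change, the 5 genes most like the family sum and the nearest tested neighbours, of which some are not reported here. Members and lists were chosen with earlier results of these data known. The design counted 9 names, which are 8 genes, and the fits without a count filter beyond DESeq2's were added after the values were seen. In parts of the partner lists, genes are named by whether they passed, chosen after their values were seen.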

Additional observations from a re-analysis of the deposited data

Results flagged for a closer look

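In groups of 4 libraries, 3 of 24 sets of values had a library whose gap to the others exceeded the critical value of Dixon's test at the 95% level. In each, a single library had reads and the other 3 had none, which passes the critical value whatever the number of reads, so the rate of about 1 in 20 by chance does not apply to them. Ifi207 in Ctr-OPC replicate 2 stood at 0.620 normalized counts, Ifi209 in Dexa replicate 2 at 3.37 and Ifi211 in Dexa replicate 2 at 3.22. They amount to 1, 4 and 3.83 estimated reads.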

How the results depend on the processing

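With the count filter, which only 2 members passed and which caps these counts at 2, the counts of members called were 2 (IFN-γ against Ctr), 0 (Dexa against Ctr) and 2 (IFN-γ against Dexa) under TMM scaling, edgeR, a stricter filter, the replicate block in either tool, fits of only the 2 groups, all 12 libraries, and each library left out. Without the filter IFN-γ against Ctr gave 4 by DESeq2, 4 by edgeR, 5 with the replicate block, 4 with all 12 libraries and 4 to 6 with a library left out. IFN-γ against Dexa gave 4, 3, 4, 4 and 2 to 4 in the same order. Among members the block changed only the call of Ifi203, with Mndal, Ifi207 and Ifi213 given no adjusted p. Over all genes it raised the calls of IFN-γ against Ctr from 8.02% to 15.2% higher and from 4.83% to 14.1% lower, and those of Dexa against Ctr from 0.558% to 2.78%. Directions held throughout for IFN-γ. Without Dexa replicate 2, log2 changes of Dexa against Ctr turned negative for 3 genes. With each library left out they ranged from -0.30 to 1.79 (Ifi204; -0.31 to 1.79 without the filter), -0.66 to 2.44 (Ifi211, with and without the filter) and -1.63 to 1.48 (Ifi209), with an adjusted p of 0.999 or more wherever one was given. The family ratio of IFN-γ to Ctr was 17.7 with TMM, 15.7 as TPM and 14.9 to 21.5 with a library left out, and that of Dexa to Ctr was 1.11 to 2.20. Depth limits all of this, since each of the 8 genes had under 10 reads in at least 7 of 11 libraries.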
